A study of Mus musculus with 3 samples.

Results

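Primitive endoderm is the layer of the early embryo that lies beside the epiblast and forms the visceral and parietal endoderm of the yolk sac. Its expression programme was followed through 9 genes, the transcription factors Gata4, Gata6, Sox7, Sox17, Hnf4a and Foxa2 and the markers Dab2, Plat and Amn. They are 9 of the 18193 genes that the array annotation names on a probe set of their own. All probe sets assigned to 1 of the 9 alone were read, 21 of the 45037 with a value on every array. A probe set is a group of short probes that together read 1 transcript. The samples were mouse embryonic stem (ES) cells at day 0, day 1 and day 2 after conditional deletion of Pou5f1, which encodes the pluripotency factor Oct3/4, with 1 array of total RNA for each day. The cells of all 3 arrays carried the conditional allele, and no undeleted culture accompanied days 1 and 2, so loss of Oct3/4, time in culture and any inducing treatment cannot be told apart. How deletion was induced, the strain, the number of clones and the use of feeder cells are not given in the sources used here.

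In the blastocyst, Gata6 marks the future primitive endoderm cells first, and Sox17, Gata4 and Sox7 follow as the cells commit. FGF4 from the epiblast, acting through FGF receptors and the ERK kinases, drives this choice, and forced Gata6 or Gata4 turns ES cells into primitive endoderm-like cells. Hnf4a and Foxa2 act in visceral endoderm, a polarised epithelium that takes up nutrients through receptors held at its surface by Amn and linked to clathrin by Dab2. Plat, the tissue plasminogen activator, is secreted by parietal endoderm. Gata6, Dab2 and Plat are not restricted to this lineage, and Foxa2 and Sox17 also mark definitive endoderm.

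The GATA factors are central regulators among the 9 genes, so the regions upstream of the members were searched for GATA letters, and those of Dab2 and Amn are shown because these 2 were past 2-fold at day 2. The letters AGATAA and TGATAA, each also with G as the last letter, were searched on both strands in the 250 bases before each annotated start of the RefSeq promoter table for mouse build GRCm38.p6. The table matched 4 of the 9 genes, Hnf4a, Foxa2, Dab2 and Amn. Capitals mark a match, and all 3 regions are on the plus strand and run 5′ to 3′.
Dab2, upstream start, chr15:6299539-6299788: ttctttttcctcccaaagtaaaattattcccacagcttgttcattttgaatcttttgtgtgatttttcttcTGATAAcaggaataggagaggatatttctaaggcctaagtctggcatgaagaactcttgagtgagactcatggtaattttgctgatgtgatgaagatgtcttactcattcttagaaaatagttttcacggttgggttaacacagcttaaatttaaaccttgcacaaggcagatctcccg
Dab2, downstream start, chr15:6386498-6386747: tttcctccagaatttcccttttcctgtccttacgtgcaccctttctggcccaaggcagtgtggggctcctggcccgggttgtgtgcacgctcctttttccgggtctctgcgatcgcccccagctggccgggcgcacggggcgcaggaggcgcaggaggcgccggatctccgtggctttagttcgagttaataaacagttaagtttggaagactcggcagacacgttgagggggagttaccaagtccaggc
Amn, chr12:111270846-111271095: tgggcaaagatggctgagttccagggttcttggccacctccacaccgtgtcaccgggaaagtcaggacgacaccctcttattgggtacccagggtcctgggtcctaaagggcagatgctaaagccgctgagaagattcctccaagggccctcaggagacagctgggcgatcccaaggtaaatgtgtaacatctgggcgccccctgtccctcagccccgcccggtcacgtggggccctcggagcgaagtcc
The upstream start of Dab2 held 1 match, TGATAA, 179 bases before the start. The downstream start of Dab2 and the start of Amn held none of these letters. Foxa2 and Hnf4a, which were dim or within 2-fold, each had 1 region with a match, AGATAA in both, so 3 of the 8 member regions held a match. Of 32851 such regions in the table, 8718 (26.5%) held at least 1 match, and nothing about direction is read from a match. The octamer ATGCAAAT, the letters bound by Oct factors, was in none of the 8 member regions and in 1.60% of all regions. No binding was measured in these samples.

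Signals are MAS5 intensities on a linear scale. Differences are on the log2(signal + constant) scale, where the constant, 55.9, is the signal that 40% of all values lie below, and they understate the change of dim probe sets. Probe sets whose mean over the 3 arrays was at or above it are called measured. With 1 array for each day there was no test, and a difference was called by size, at 2-fold or more. The arrays give a single kind of error, how far probe sets of 1 gene differ. Its pooled SD in log2 was 0.34 at day 2 against day 0 and 0.30 for either single step. At day 2 against day 0 it was 0.45 among probe sets with mean signals from 55.9 to 112, 0.35 from 112 to 447 and 0.23 above that. It leaves out the spread between cultures. Pou5f1, the targeted gene, had signals of 2400 (day 0), 40.8 (day 1) and 15.5 (day 2). The median signal was 83.5, 92.5 and 87.6 on the 3 days, in that order, and the trimmed means were equal.

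The primitive endoderm list did not move as a block. Gata6, Dab2 and Plat were higher at day 2 than at day 0, Amn was lower, and Gata4, Sox17 and Hnf4a stayed within 2-fold. Sox7 and Foxa2 had no measured probe set. Of the 21 probe sets 10 were measured, 5 of 14 for the transcription factors and 5 of 7 for the markers, and 6 lay below the constant on all 3 days. At day 2 against day 0, 4 of the 10 were higher by 2-fold or more and 1 was lower by as much. Over all 26925 measured probe sets these shares were 4.48% and 4.87%. At day 1 against day 0, 3 were higher and 0 lower, where all measured probe sets gave 2.09% and 2.28%. At day 2 against day 1, 1 was higher and 1 lower, against 1.81% and 2.41% of all measured probe sets. With a constant of 112, 1 was higher at day 1 against day 0, 3 at day 2 against day 0 and 0 at day 2 against day 1. With arrays scaled to equal ribosomal protein signals, 1 was higher at day 1 against day 0. A dim probe set that is high on 1 array passes the filter through that array, so these counts describe the probe sets that passed and not the whole list. In bulk RNA, a change in the number of cells of a type cannot be told apart from a change in RNA per cell.

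**Figure D1:**
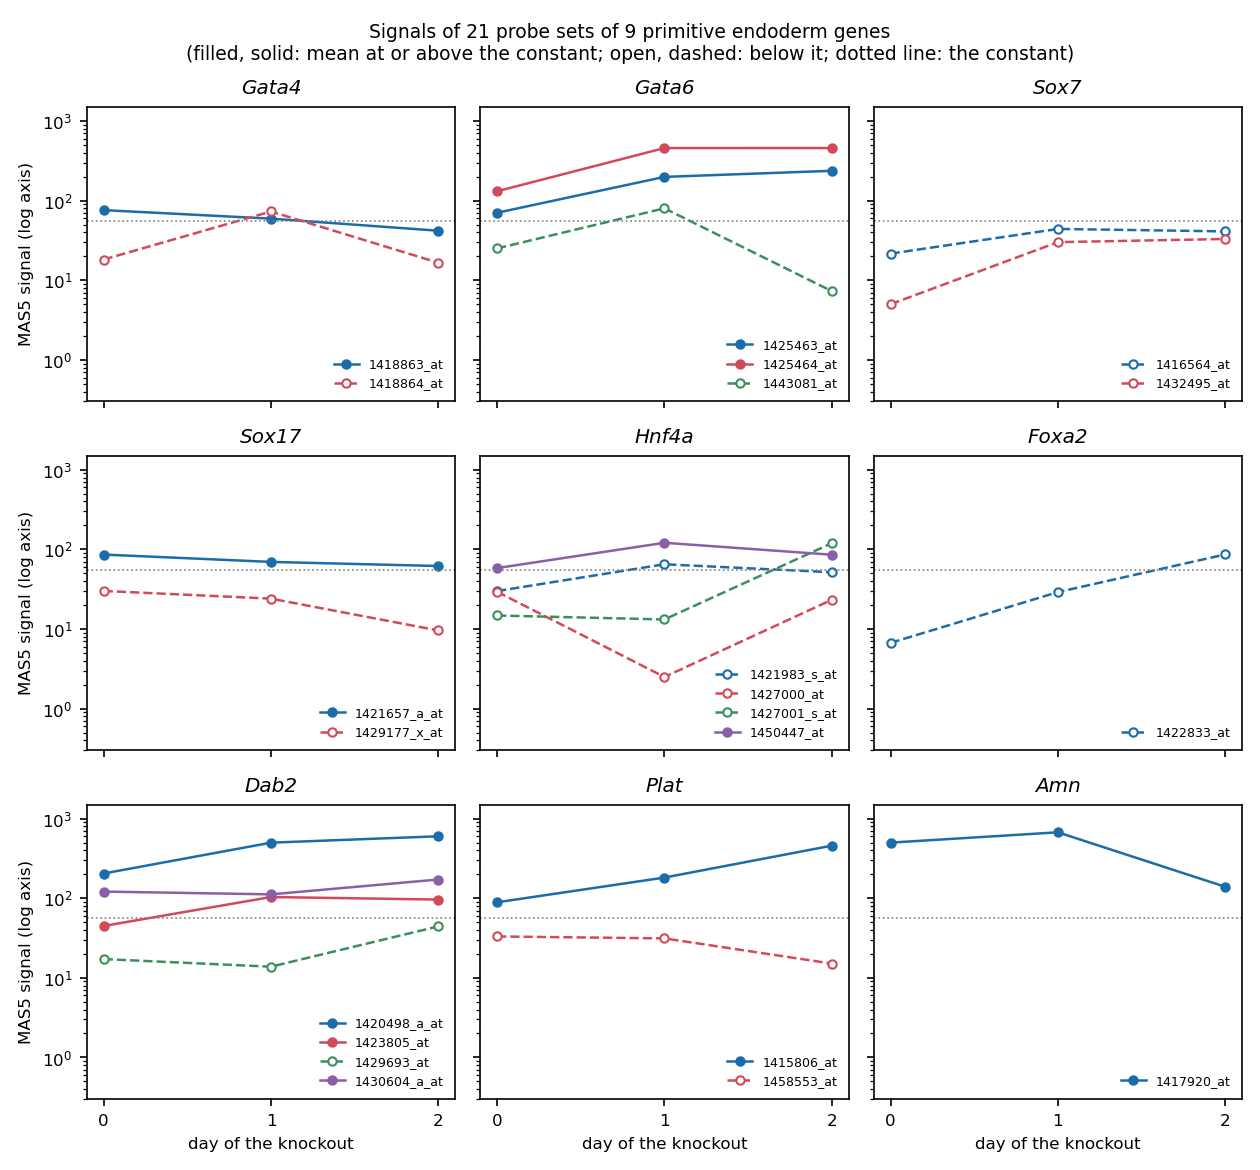
MAS5 signal (log axis) of each of the 21 probe sets on the day 0, day 1 and day 2 arrays, 1 panel per gene, with filled symbols for probe sets whose mean reached the constant of 55.9 (dotted line) and open symbols for the others. Gata6, Dab2 and Plat each have a probe set that ends at day 2 near or above 457, Amn is at 139 at day 2 after 673 at day 1, and the probe sets of Sox7 stay under the line on every day.

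Gata6, the zinc finger factor that starts the primitive endoderm programme, was the regulator with a difference past 2-fold on measured probe sets, and it was as high at day 1 as at day 2. Its brightest probe set, 1425464_at, had signals of 131 (day 0), 457 (day 1) and 458 (day 2). The day 1 and day 2 values were alike and both stood above day 0. Against day 0 the difference was 1.46 at day 1 and 1.46 at day 2, and between days 1 and 2 it was 0.00. A second measured probe set, 1425463_at, had signals of 70.4, 199 and 237 on the same days, with differences of 1.01 at day 1 and 1.21 at day 2. These 2 probe sets thus gave the same direction, and their day 2 differences lay 0.24 apart, less than the pooled SD. The step between day 1 and day 2 was within the pooled SD for both of these probe sets (0.00 and 0.20). The third probe set, 1443081_at, was dim, with signals of 25.1, 80.1 and 7.30, and did not hold the higher level at day 2. Among 12717 genes, each represented by its brightest measured probe set, Gata6 ranked 56th from the highest at day 1 against day 0 and 231st at day 2 against day 0.

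Gata4, the close relative of Gata6 that follows it in the embryo, showed no such difference. Its measured probe set, 1418863_at, had signals of 76.0 (day 0), 59.4 (day 1) and 41.9 (day 2). The day 2 value was the lowest and lay below the constant. The difference was -0.43 for day 2 against day 0, less than 1 pooled SD at this brightness (0.45). The other probe set of Gata4, 1418864_at, had signals of 18.2, 73.1 and 16.6. It was above the constant at day 1 alone, and its day 2 and day 0 values were alike.

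Sox17 and Sox7, the Sox group F factors of primitive endoderm, were near or below the constant. Sox17 had signals of 86.2, 69.7 and 61.9 on the measured probe set 1421657_a_at, a difference of -0.27 at day 2, and of 30.1, 24.1 and 9.60 on the dim one. Both probe sets were highest at day 0 and lowest at day 2, by less than the pooled SD at this brightness on the measured one. Sox7 had signals of 21.6, 44.1 and 41.1 on one probe set and 5.00, 30.1 and 33.0 on the other. Both were higher on days 1 and 2 than at day 0, and all 6 values were under the constant, so no difference in Sox7 was resolved.

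Hnf4a and Foxa2, the visceral endoderm regulators, were near the constant, and the 4 probe sets of Hnf4a went different ways. The measured one, 1450447_at, had signals of 58.3, 121 and 85.8, highest at day 1, with differences of 0.63 at day 1 and 0.31 at day 2. The probe set 1427001_s_at was at 14.8 and 13.2 on days 0 and 1 and at 120 at day 2, a difference of 1.31 for day 2 against day 0 on a probe set too dim on average to be measured. The remaining 2 gave day 2 differences of 0.32 and -0.11. Foxa2, which a single probe set represents, had signals of 6.70, 29.1 and 86.5, and its day 2 value was the one above the constant. The difference for day 2 against day 0 was 1.19. These were the 2 dim probe sets, of 11, that differed by 2-fold or more at day 2 against day 0, and for both the mean over the 3 arrays lay below the constant.

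**Figure D2:**
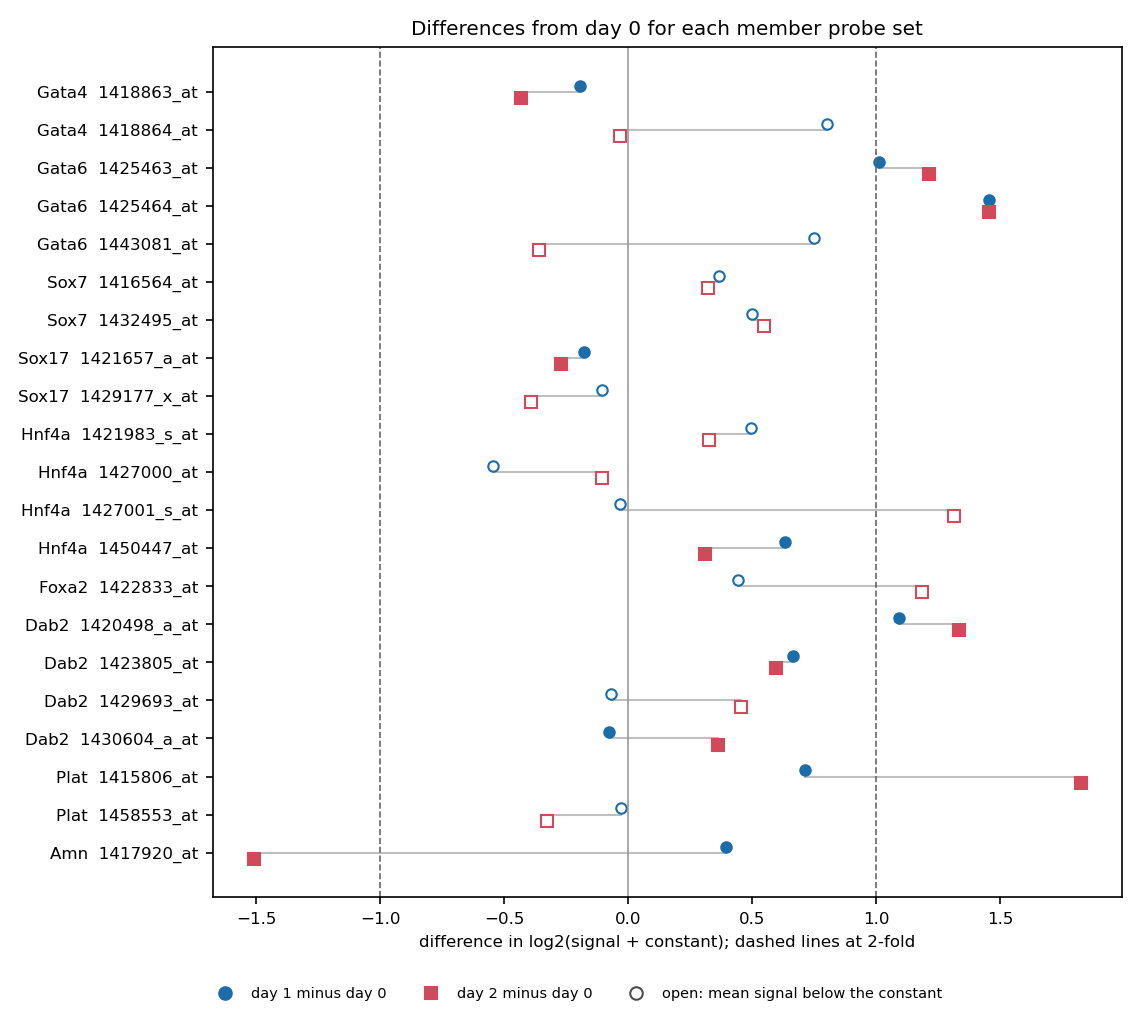
Difference in log2(signal + constant) from day 0 for each of the 21 probe sets, circles for day 1 minus day 0 and squares for day 2 minus day 0, open where the mean signal was below the constant. Both measured Gata6 probe sets, 1 of the 4 Dab2 probe sets and 1 of the 2 Plat probe sets lie right of the 2-fold line at day 2, as do the open squares of Foxa2 and 1 Hnf4a probe set. Amn lies left of the lower line, and the probe sets of Gata4, Sox7 and Sox17 lie between the lines.

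Plat, the serine protease that turns plasminogen into plasmin, had the largest difference of the 9 genes at day 2 against day 0, and its second step was past 2-fold. Its measured probe set, 1415806_at, had signals of 88.9 (day 0), 182 (day 1) and 457 (day 2). Each day stood above the day before. The first step was 0.71, the second was 1.11, and day 2 stood 1.82 above day 0. That is 3.54-fold with the constant added, and the signals themselves differed 5.14-fold. Plat ranked 98th from the highest among 12717 genes at day 2 against day 0 and 195th at day 2 against day 1. The other probe set, 1458553_at, stayed below the constant, at 33.1, 31.3 and 15.1. With a constant of 112 the step from day 1 was 0.95, under 2-fold.

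Dab2, an adaptor that couples receptors of the LDL receptor family to clathrin, was higher by an amount that depended on the probe set. The brightest, 1420498_a_at, had signals of 204 (day 0), 498 (day 1) and 600 (day 2). Days 1 and 2 stood above day 0, and the difference was 1.09 at day 1 and 1.33 at day 2 against day 0. Another measured probe set, 1423805_at, had signals of 44.8, 104 and 96.2 and differences of 0.66 and 0.59. The third, 1430604_a_at, had signals of 121, 112 and 172, with -0.08 at day 1 and 0.36 at day 2. All 3 were thus higher at day 2 than at day 0, but their differences spanned 0.97. The pooled SD describes single probe sets and is no measure for a range over 3. The mean over them was 0.76 at day 2, under 2-fold, and 0.59 without the probe sets whose names end in _a_at, _s_at or _x_at, which match several transcripts. At day 1 the difference of the brightest probe set was 0.95 with a constant of 112 and 0.98 with arrays scaled to equal ribosomal protein signals.

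Amn, the membrane protein that carries cubilin to the surface of visceral endoderm, was the member with a lower value, and the second step alone was past 2-fold. Its single probe set, 1417920_at, had signals of 499 (day 0), 673 (day 1) and 139 (day 2). The day 2 value was far below both others, and the day 1 value was above day 0 by less than 2-fold. The first step was 0.39 and the second -1.90, and the difference of day 2 from day 0 was -1.51. That is 2.85-fold lower with the constant added, and the day 2 signal itself was 0.279 of the day 0 signal. Among 12717 genes Amn ranked 44th from the lowest at day 2 against day 1 and 337th at day 2 against day 0. No other probe set was there to compare with.

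**Figure D3:**
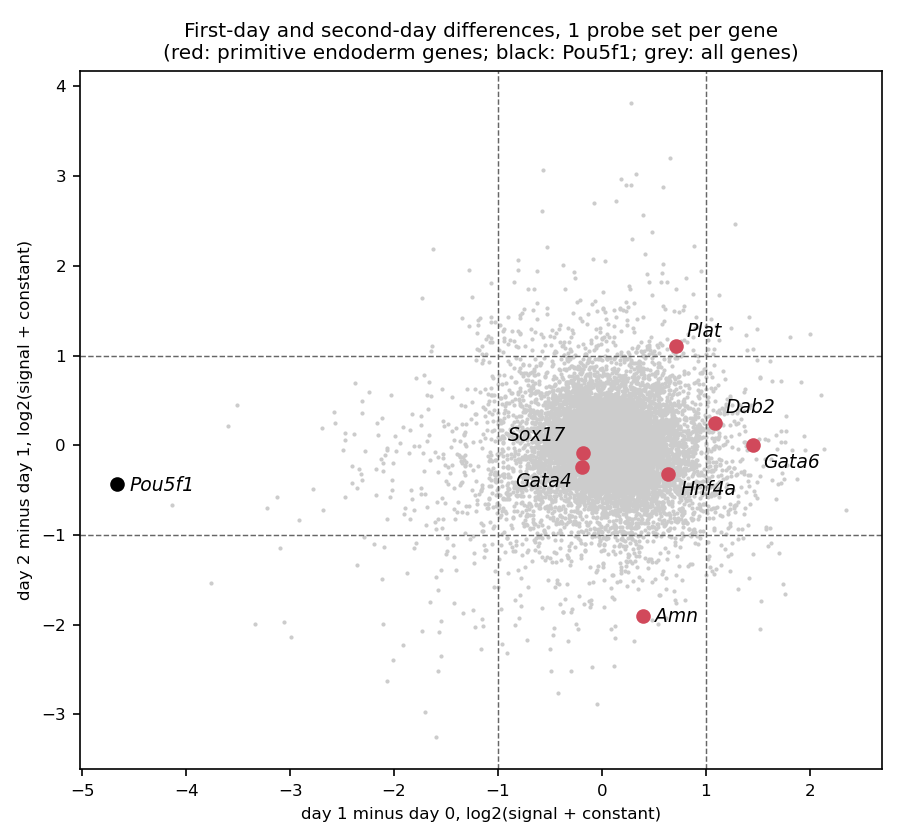
Difference for day 1 minus day 0 (horizontal) against day 2 minus day 1 (vertical), in log2(signal + constant), for all 12717 genes (grey), the 7 measured primitive endoderm genes (red) and Pou5f1 (black). Gata6 and Dab2 lie past the 2-fold line of the first step, Plat past that of the second, Amn low on the second step, and Gata4, Sox17 and Hnf4a inside the central cloud.

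The genes most like each changed member were taken as the 3 with the smallest Euclidean distance in the differences of day 1 and day 2 from day 0, among genes with a mean signal within 2-fold. The 3 arrays give just 2 differences for this measure, so it is a description. Gata6 was nearest to Gprc5c (distance 0.09), G6pc3 (0.10) and Mex3b (0.11). Gprc5c had signals of 195, 597 and 611 on the 3 days, at a higher level from day 1 as Gata6 was. Dab2 was nearest to Rflnb (0.03), Grk3 (0.05) and Zdhhc2 (0.08). Plat was nearest to Cmbl (0.02), Lrrc8c (0.07) and the transcription factor gene Ets1 (0.14), whose signals were 103, 207 and 458. Amn was nearest to Klf15 (0.10), a Krüppel-like factor gene with signals of 387, 563 and 104, and then to Sntb2 (0.28) and Bmerb1 (0.33), at larger distances than for the other 3 members.

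Genes that work with these members were described through 8 lists, with 1 probe set for each gene. Over all 12717 genes the median difference for day 2 against day 0 was 0.05, 5.25% were higher by 2-fold or more and 5.65% lower. At day 1 against day 0 these shares were 2.4% and 2.59%, and at day 2 against day 1 they were 2.09% and 2.65%. Some genes are in 2 lists. A gene said to lie below the constant had a mean signal under it.

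Other transcription factors of extraembryonic endoderm stayed within 2-fold at day 2. Of 13 listed genes 11 had a probe set, 7 were measured, 0 were at least 2-fold higher or lower at day 2, and the median was -0.02. Zfpm1, a cofactor that binds GATA factors, had signals of 232 (day 0), 545 (day 1) and 417 (day 2), with differences of 1.06 at day 1 and 0.72 at day 2. Its other measured probe set gave 0.19 at day 2. Hhex, a homeobox factor gene of endoderm named after its value was seen, had signals of 298, 230 and 127 and the largest day 2 difference of the list, -0.95. It came to -1.07 with a constant of 27.95 and -1.04 with equal ribosomal protein signals, both past 2-fold. Sall4, a zinc finger factor of both ES cells and primitive endoderm, was bright throughout and stood at -0.32 at day 2, and Snai1 at 0.42. Foxa1, Lhx1, Sox18 and Zfpm2 lay below the constant.

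Among relatives of the 6 factors, Gata2 and Gata3 were higher. Of 11 listed relatives 6 were measured, 2 were at least 2-fold higher at day 2 and 0 lower, and the median was 0.44. Gata3 had signals of 54.7, 206 and 594 on the 3 days, a difference of 2.56 at day 2. Gata2 had signals of 273, 348 and 943, a difference of 1.60, and its other measured probe set gave 3.03. Both are GATA factors of trophectoderm, the lineage that forms the placenta, and both are in the trophectoderm list below. Gata1 stood at 0.89 and Gata5, a factor of endoderm and heart, at -0.34. Dab1, the neuronal relative of Dab2, was at -1.12 at day 1 and -0.79 at day 2.

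Parietal endoderm and basement membrane genes, the matrix that primitive endoderm lays down, moved in both directions. Of 14 listed genes 11 were measured, 4 were at least 2-fold higher at day 2 and 2 lower, and the median was 0.87. The type IV collagen genes Col4a2 (signal 2245 at day 2 against 553 at day 0, difference 1.92) and Col4a1 (4072 against 1061, 1.89) were higher. The collagen chaperone gene Serpinh1 was higher by 1.57, and Pth1r, the parathyroid hormone receptor gene of parietal endoderm, by 1.07. The nidogen gene Nid2 (449 against 3455, -2.80, on its single measured probe set, 1 of those that match several transcripts) and the laminin chain gene Lama1 (186 against 709, -1.66) were lower. Lamb1 stood at 0.94 and Sparc, a matrix protein gene abundant in parietal endoderm, at 0.13. Thbd, Fst and Srgn lay below the constant.

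Visceral endoderm products were split between dim and measured genes. Of 24 listed genes 23 had a probe set, 10 of these lay below the constant, and Afp, Ttr, Apoa1, Apoa4, Apob and Cer1, products that define visceral endoderm, were among the 10. Of the 13 measured genes 3 were at least 2-fold higher and 3 lower at day 2, and the median was 0.13. The Wnt inhibitor gene Dkk1 was higher by 2.96, Amot, a junction protein gene, by 1.56 and the claudin gene Cldn6 by 1.28. The probe sets of Amot gave differences from -0.33 to 1.56. The protease inhibitor gene Spink1 (signal 28.7 at day 2 against 974 at day 0, -3.61) and the apolipoprotein genes Apoe (-2.94) and Apom (-1.43) were lower. Rhox5 was bright throughout, with a difference of 0.20, and Rbp4 stood at -0.12.

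The endocytic partners of Amn and Dab2 stayed within 2-fold at day 2. Of 12 listed genes 10 were measured, 0 were at least 2-fold higher or lower, and the median was 0.43. Lrp2, the gene of megalin, the receptor that works with cubilin and Dab2, had signals of 561, 1314 and 1164, with differences of 1.15 at day 1 and 0.98 at day 2. Another probe set of Lrp2 gave 0.06 at day 2. Cubn, the gene of cubilin itself, stayed below the constant, with its highest signal, 52.2, at day 2. The clathrin chain genes Clta and Cltc stood at 0.17 and 0.57. For day 2 against day 0 the difference was thus -1.51 for Amn and 0.98 for Lrp2, and cubilin was not resolved.

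The plasminogen system around Plat gave mixed values. Of 11 listed genes 6 were measured, 1 was at least 2-fold higher and 1 lower at day 2, and the median was 0.19. Anxa2 and S100a10 encode the subunits of a complex that binds Plat and plasminogen at the cell surface. Anxa2 had signals of 1443, 913 and 3665, a difference of 1.31 at day 2, with 0.96 on its other measured probe set. At day 1 against day 0 these probe sets went opposite ways, at -0.63 and 0.58. S100a10 had signals of 4810, 4437 and 2298, a difference of -1.05, with -0.53 at the other end of its probe sets. Serpinf2, a plasmin inhibitor gene, was at -1.09 at day 1 and 0.12 at day 2. Plaur, the urokinase receptor gene, stood at 0.29 and Serpinb6a at 0.26. Plg, the gene of the substrate plasminogen, and Plau, the related activator gene, lay below the constant.

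Genes of FGF and ERK signalling, which acts upstream of Gata6 in the embryo, were mostly lower or level. Of 14 listed genes 12 were measured, 1 was at least 2-fold higher at day 2 and 6 lower, and the median was -1.06. Fgf4, the ligand gene, had signals of 3253, 958 and 73.5, with differences of -1.71 at day 1 and -4.68 at day 2. Its measured probe sets gave differences from -1.71 to -0.60 at day 1 and from -4.68 to -2.42 at day 2. The ERK feedback and target genes Etv5 (-3.21), Etv4 (-3.19), Dusp6 (-2.93), Spry4 (-2.28) and Spry2 (-2.11) were lower at day 2, and of these 5 just Etv5 (-1.34) was past 2-fold at day 1. The probe sets of Spry2 gave day 2 differences from -2.11 to -0.36, and those of Etv4 from -3.19 to -1.26. The higher gene was the receptor gene Fgfr1, at 1.24, which was named after its value was seen and whose measured probe sets gave differences from 0.60 to 1.24. The kinase gene Map2k1 stood at -0.01 and the adaptor gene Grb2 at 0.13. At day 1 against day 0, Fgf4 and Etv5 were lower on their brightest probe sets. A further measured probe set of each was under 2-fold there, at -0.60 for Fgf4 and -0.92 for Etv5. The receptor gene Fgfr2 (1690 against 757, 1.10), also named after its value was seen, was higher at day 1. At day 2 it stood at 0.87, with 1.34 on its other measured probe set. Dusp6, Spry2, Spry4 and Etv4 were within 2-fold at day 1.

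Definitive endoderm and mesendoderm genes, listed because Foxa2 and Sox17 belong there too, were dim or within 2-fold at day 2, apart from Foxh1. Of 10 listed genes 4 were measured, 0 were at least 2-fold higher at day 2 and 1 lower, and the median was -0.40. Foxh1, a Nodal pathway factor gene, was lower, with a difference of -1.07. Eomes had signals of 381, 844 and 295, with 1.04 at day 1 and -0.32 at day 2. Cxcr4 stood at 0.78 and Mesp1 at -0.49, and Mixl1, Gsc, Evx1, Fgf8 and Wnt3 lay below the constant.

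**Figure D4:**
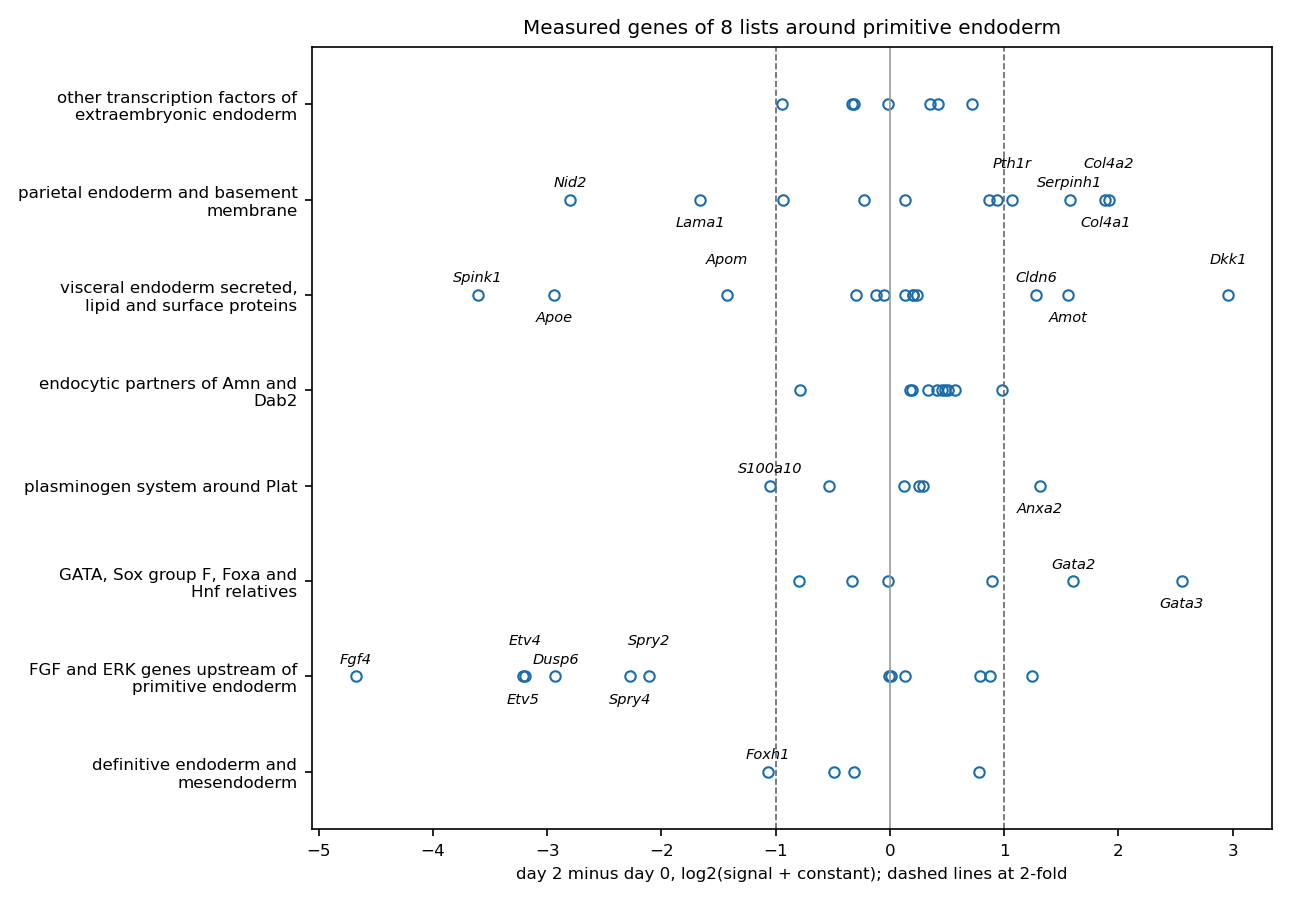
Difference for day 2 minus day 0 in log2(signal + constant) of every measured gene (circles) in the 8 lists, with dashed lines at 2-fold and named genes past them. Basement membrane and visceral endoderm genes lie on both sides, the FGF and ERK genes reach from Fgf4 at -4.68 to 1.24, and the endocytic partners lie between the lines.

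Markers of other cell types were read on the same arrays. Trophectoderm genes were mostly higher at day 2 than at day 0, as were Gata6, Dab2 and Plat. Of 12 listed genes 11 were measured, and 10 were at least 2-fold higher at day 2 and 0 lower. The summed signal of the 11 was 11316 (day 0), 17436 (day 1) and 62941 (day 2). Most of the day 2 sum came from the keratin genes Krt8 (18358) and Krt18 (24610), so it mainly follows these. The median difference of the 11 was 0.66 at day 1 against day 0 and 1.31 at day 2 against day 1. For the same steps Gata6 gave 1.46 and 0.00, Dab2 1.09 and 0.24, and Plat 0.71 and 1.11. The trophectoderm factor genes Cdx2 (2.09) and Gata3 (2.56) were among the 10. Eomes was the measured gene that was not higher, at -0.32 at day 2, and Elf5 lay below the constant. All 10 pluripotency genes were measured and at least 2-fold lower at day 2, with summed signals of 123271, 74581 and 25620. Of 8 fibroblast genes 3 were measured, and 0 were at least 2-fold higher at day 2 and 1, Thy1 (-1.65), lower. The collagen genes Col1a2 (0.26) and Col6a3 (0.40) were measured and within 2-fold, and Col1a1 and Col3a1 lay below the constant. Of 7 endothelial and blood genes, read because Sox7 and Sox17 are expressed there, 3 were measured. Of these, 0 were at least 2-fold higher at day 2 and 1, Pecam1 (-2.17), lower, and Cdh5 lay below the constant. The part of trophectoderm cells in the values of Gata6, Dab2 and Plat was not tested.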

How the data were processed

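The authors deposited array intensities, 1 value for each probe set and array. They come from MAS5, of unstated version, per the submitters' processing notes. Per the labels' protocols, Trizol extracts were purified on RNeasy columns before biotin labelling. The values are linear and share a 2% trimmed mean. The day 2 array has 64 further control probe sets, left out here, and whether it was processed apart from the others was not tested.

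Each array was scaled to the common trimmed mean, the constant was added, and log2 differences were taken. The filter kept 26925 of 45037 probe sets. Of the probe sets, 34958 name 1 gene, 932 name several and 9147, not listed in the annotation, are unnamed here. A gene was represented by its measured probe set of highest mean signal. The members and lists were chosen with earlier results of these data known. Named list genes were up to 6 past 2-fold at any step and up to 2 of the brightest others. Genes named as below the constant or read from the marker lists were chosen after their values were seen. Scaling, the pooled SD and differences taken without the constant were tested on simulated data, with known changes put into bright probe sets. The constant, the filter and the choice of probe set were not tested in this way. Python 3.11.15, numpy 2.4.6, pandas 2.3.3 and matplotlib 3.10.9 were used. Alternatives changed the constant, scaling, filter and choice of probe set.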

Additional observations from a re-analysis of the deposited data

How the results depend on the processing

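Of the 21 member differences, 8 were past 2-fold. Under 8 alternatives 0 of 156 member values turned a called direction, 7 fell under 2-fold and 0 of those measured came past it. Just the 8 differences past 2-fold could turn a called direction. Many of the 156 values could not change, because the filter alternatives kept the same probe set for each gene. A gene with 1 measured probe set also kept its value as the mean over probe sets. Dab2 gave 6 of the 7: at day 1, 0.95 with double the constant, 0.98 with equal ribosomal protein medians, 0.56 as the mean over its probe sets and 0.66 without the _a_at, _s_at and _x_at probe sets, and at day 2, 0.76 and 0.59 under the last 2 of these. The other was Plat for day 2 against day 1, at 0.95 with double the constant. Genes past 2-fold at day 1 against day 0 numbered 2, and 1 under each of those 4 alternatives. Higher probe sets at that step numbered 3, and 1 with double the constant or equal ribosomal protein medians. They numbered 2 with quantile normalisation, which gives all arrays the same distribution of signals, and 2 without the probe sets of those endings. With no filter, Foxa2 (1.19) joined the genes past 2-fold at day 2 against day 0, 5 in place of 4, and higher probe sets there numbered 6 in place of 4. For day 2 against day 1, 2 genes were past 2-fold and 1 with double the constant, while the 1 higher probe set became 0 with double the constant and 2 with no filter, and the 1 lower became 2 with no filter.

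Over the partner lists at day 2 against day 0, 11 genes were higher and 7 without the probe sets of those endings. That alternative gave 1 lower basement membrane gene in place of 2, 0 higher plasminogen genes in place of 1, 1 higher relative in place of 2 and 0 higher FGF and ERK genes in place of 1. With a constant of 27.95, 1 transcription factor (Hhex, -1.07) was lower and 1 endocytic gene (Lrp2, 1.02) higher, in place of 0. Equal ribosomal protein medians gave 1 lower transcription factor (Hhex, -1.04) in place of 0, and the mean over probe sets 0 lower plasminogen genes (S100a10, -0.80) in place of 1. Pth1r (0.92) and Apom (-0.97) fell under 2-fold with double the constant, and Amot (0.61) as the mean over its probe sets. Under that mean Fgfr1 (0.90) also fell under 2-fold, while Fgfr2 (1.11) and Lamb1 (1.05) came past it. With equal ribosomal protein medians Lamc1 (-1.05) came past 2-fold and Pth1r (0.98) fell under it. Beyond the alternatives' own construction, the cause was not tested. The filter at the 60th percentile left no value for Gata4, Sox17 and Hnf4a. No paired analysis was possible because each day has 1 array. Precision is limited by having 3 arrays, and signals under the constant leave Sox7, Foxa2 and the dim probe sets unresolved.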

Other observations

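Within the adhesion and signalling genes read as markers, 2 surface proteins were also far from day 0. Pecam1, an adhesion molecule of endothelium that ES cells also carry, had signals of 849, 626 and 145 on the 3 days in order, a difference of -2.17 at day 2. Thy1, a surface glycoprotein of fibroblasts and neurons, had signals of 400, 275 and 89.3, a difference of -1.65. The endothelial receptor gene Tek had signals of 127, 172 and 52.9, highest at day 1, a difference of -0.75 at day 2. Hand1, a factor gene of trophoblast, had its highest signal at day 1, with 494, 1722 and 1262 on the 3 days and a difference of 1.26 at day 2. Eomes and Cdx2 also had their highest signal at day 1. The step from day 1 to day 2 was -0.43 for Hand1 and -0.05 for Cdx2, both within 2-fold, and -1.36 for Eomes.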
